A study of Mus musculus with 9 samples.

Results

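The genes described here encode the machinery of oxidative phosphorylation, which is built from subunits of both the mitochondrial and the nuclear genome. They were chosen by gene symbol: symbols beginning with mt-Nd, mt-Co, mt-Cytb or mt-Atp for the mitochondrial genome, and with Ndufa, Ndufb, Ndufc, Ndufs, Ndufv, Sdha to Sdhd, Uqcr, Cox4 to Cox8 or Atp5 for the nuclear genome. Of 55418 symbols counted, 123 matched. Of these 9 with -ps in the symbol and 11 with a mean under 5 CPM (the counts of a gene over the total of the library, times 1000000) were set aside, and 103 genes remained. Of these 13 are mitochondrial and 90 nuclear, and all 103 passed the filter for testing. Sdhaf3 at 5.18 CPM and Atp5s at 5.22 CPM were the members closest to the minimum, and Cox6a2 at 1.00 CPM was the highest gene under it.

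RNA came from 66cl4, a mouse triple negative breast cancer cell line, transduced with a hairpin vector and held under puromycin in all groups. The cells carried the hairpin shEya3_KD1, the hairpin shEya3_KD2, which both target Eya3 (a transcriptional co-activator and phosphatase), or a scrambled hairpin (SCR), with 3 libraries in each of the 3 groups. The libraries are labelled as biological replicates, but whether they came from separate infections or cultures is not described, so p-values measure the spread between these libraries. Both comparisons with SCR use the same 3 SCR libraries, so they are given side by side and their likeness is not a separate result.

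In oxidative phosphorylation, complexes I and II pass electrons from NADH and succinate to ubiquinone, complex III passes them on to cytochrome c, and complex IV to oxygen. Complexes I, III and IV pump protons across the inner mitochondrial membrane, and complex V, the ATP synthase, lets them flow back to make ATP. Complexes I, III, IV and V contain subunits of both genomes, while complex II is encoded in the nucleus alone. Mitochondrial messenger RNAs are cut from long transcripts of the circular genome, so that most of them are made together.

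Library totals lay between 27758862 and 52691960 counts. Eya3 averaged 23.1 ± 1.58 CPM in shEya3_KD1 and 36.8 ± 2.48 CPM in shEya3_KD2, against 74.1 ± 5.40 CPM in SCR (SD, n = 3 each), which is 31.2% and 49.7% of the SCR mean. Of the 15914 genes tested, 24.1% rose and 26.2% fell in shEya3_KD1 against SCR, and 23% rose and 22.3% fell in shEya3_KD2 against SCR (edgeR's quasi-likelihood test, Benjamini-Hochberg adjusted p under 0.05). Of 7 mammary epithelial markers, Krt8 averaged 1316 CPM in shEya3_KD1 and 778 CPM in shEya3_KD2, against 689 CPM in SCR, while Krt18 averaged 0.956 CPM in shEya3_KD1 and 2.57 CPM in shEya3_KD2, against 0.0281 CPM in SCR, and Krt14 0.561 CPM in shEya3_KD1 and 11.6 CPM in shEya3_KD2, against 1.34 CPM in SCR. Cdh1, Krt19 and Krt5 averaged under 1 CPM in each group and Epcam had no counts in any of the 9 libraries. Of the receptors that name the tumour type, Pgr had no counts, Esr1 averaged 14.8 CPM in shEya3_KD1 and 15.7 CPM in shEya3_KD2, against 7.23 CPM in SCR, and Erbb2 65.4 CPM in shEya3_KD1 and 65.9 CPM in shEya3_KD2, against 54.4 CPM in SCR. The 6 fibroblast markers summed to 54.1 to 58.3 CPM in shEya3_KD1 and 30.6 to 43.7 CPM in shEya3_KD2, against 29.3 to 36.2 CPM in SCR. Pdgfrb was higher and Col1a1 lower in both hairpin groups, while Col1a2 averaged 4.54 CPM in shEya3_KD1 and 0.122 CPM in shEya3_KD2, against 0.0861 CPM in SCR. The 5 endothelial markers summed to 2.13 to 3.17 CPM in shEya3_KD1 and 1.82 to 2.57 CPM in shEya3_KD2, against 4.17 to 4.91 CPM in SCR. They did not move together. Cdh5 and Tie1 were lower in both hairpin groups, with Cdh5 at 0.265 CPM in shEya3_KD1 and 2.09 CPM in shEya3_KD2, against 3.78 CPM in SCR. Emcn averaged 2.25 CPM in shEya3_KD1, against 0.0134 CPM in SCR, and had no counts in shEya3_KD2. The macrophage and lymphocyte sums reached at most 1.36 CPM in any library. The part of these shifts in the results was not tested. In bulk RNA, fewer cells that make a transcript and less of it per cell cannot be told apart.

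The 2 genomes did not move together. Summed over the 90 nuclear genes, the level was 10334, 9183 and 11417 CPM in the shEya3_KD2 libraries, against 13863, 12883 and 13041 CPM in the SCR libraries, so every shEya3_KD2 library lay below every SCR library. The shEya3_KD2 mean was 77.8% of the SCR mean. In shEya3_KD1 the nuclear sum was 11729, 12843 and 13235 CPM, 95.02% of the SCR mean, and overlapped SCR. The mitochondrial sum went the other way on average, at 22356, 14779 and 21251 CPM in shEya3_KD1 and 19040.3, 19931 and 17789.8 CPM in shEya3_KD2, against 12103, 19282 and 14626 CPM in SCR. Those means were 127% and 123% of the SCR mean, but replicate 2 of SCR lay among the hairpin libraries and replicate 2 of shEya3_KD1 lay among the SCR libraries. The ratio of the mitochondrial to the nuclear sum was 1.84, 2.17 and 1.56 in shEya3_KD2, against 0.873, 1.497 and 1.12 in SCR, without overlap. In shEya3_KD1 it was 1.91, 1.15 and 1.61, which overlapped SCR. These sums over chosen genes are a description and carry no test. The mitochondrial sum and the ratio also depend on how reads shared with nuclear copies were counted, which is not given in the sources used here.

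**Figure D1:**
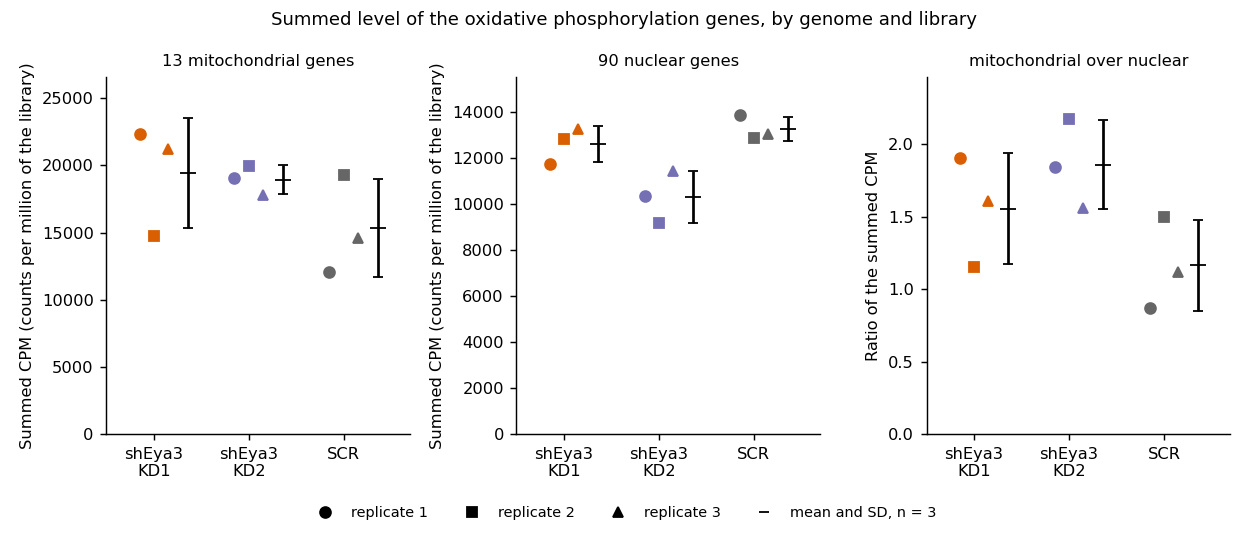
Summed CPM of the 13 mitochondrial genes (left), of the 90 nuclear genes (middle) and their ratio (right) in each library, with the group mean and SD (n = 3) as a bar beside the points. The 3 shEya3_KD2 libraries lie below SCR in the nuclear sum and above it in the ratio, while the mitochondrial sums spread widely within shEya3_KD1 and SCR.

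Gene by gene, the nuclear members fell in shEya3_KD2: 45 of 90 fell and 1 rose, with a median log2 fold change of -0.27, where 22.3% of all genes tested fell, 23% rose and their median was -0.004. In shEya3_KD1 15 of 90 rose and 15 fell, with a median of 0.06 (all genes 0.01), beside 24.1% and 26.2% of all genes. The 15 that rose became 6 without replicate 3 of SCR, 8 without replicate 2 of SCR, 8 without replicate 2 of shEya3_KD1 and 9 without its replicate 3. One nuclear member, Cox7b2, fell by more than 1 on the log2 scale in shEya3_KD2, and none did in shEya3_KD1. Of the 13 mitochondrial genes 1 rose in shEya3_KD1 and none fell, and 2 rose and 1 fell in shEya3_KD2. Their median log2 fold changes were 0.38 and 0.25, above those of the nuclear members in both comparisons.

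**Figure D2:**
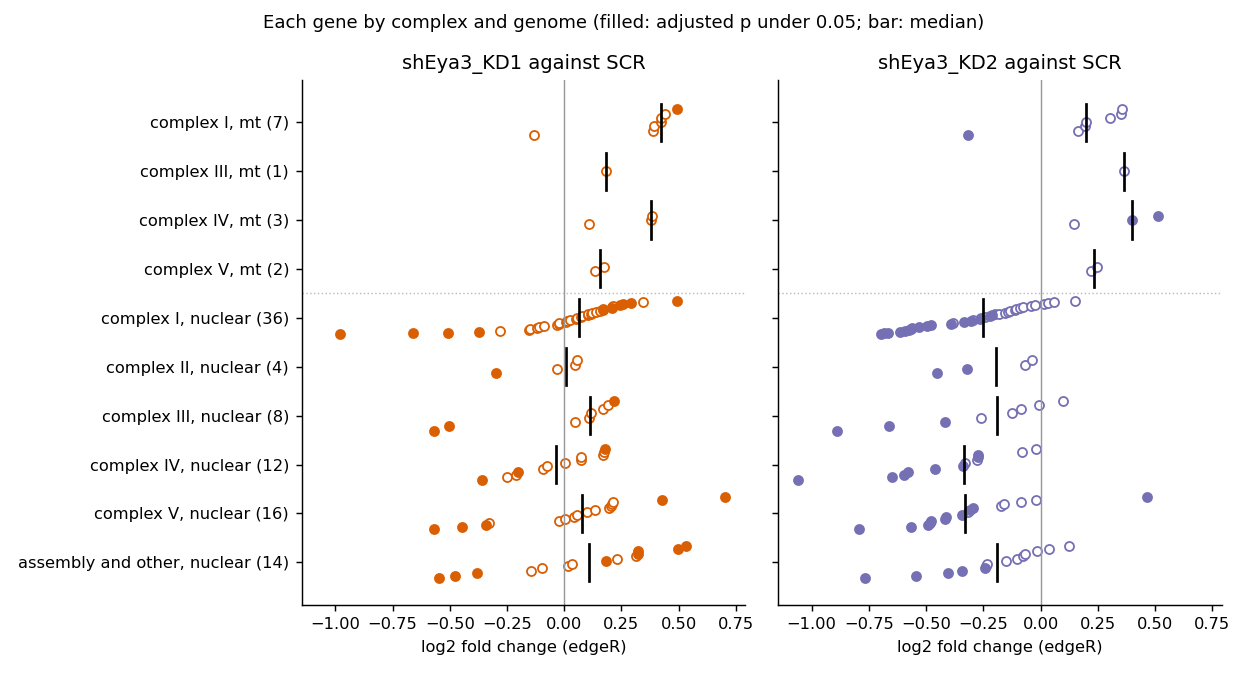
log2 fold change of every member against SCR, by complex and genome with the number of genes in brackets, for shEya3_KD1 (left) and shEya3_KD2 (right). Filled points passed an adjusted p of 0.05 and the black bar is the median of the row: all nuclear rows have their median below 0 in shEya3_KD2, and in shEya3_KD1 they lie between -0.03 and 0.11.

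Among the mitochondrial genes, mt-Nd1 and mt-Co1 had the highest counted levels per length, at 3752 and 3731 CPM per kilobase over the 9 libraries. The lowest was mt-Nd6, the one member read from the other strand, at 75.0 CPM per kilobase. mt-Co2, mt-Co3, mt-Atp6, mt-Nd3 and mt-Nd4l, which have nuclear copies over nearly their whole length, stood at 347, 237, 291, 123 and 94.1 CPM per kilobase. mt-Atp8, without such an annotated copy, was also low at 226 CPM per kilobase. These ranks depend on how reads shared with copies or overlapping genes were counted, which is not given in the sources used here. mt-Nd1, a core subunit at the ubiquinone site of complex I, stood at 4855, 3152 and 4537 CPM in shEya3_KD1 and 3570.2, 3428 and 3408 CPM in shEya3_KD2, against 2439.5, 3931 and 2998 CPM in SCR. The groups overlapped and no change was called (log2 fold changes 0.44 ± 0.19 (SE), edgeR adjusted p = 0.0782, and 0.20 ± 0.19, edgeR adjusted p = 0.426). mt-Cytb, the cytochrome b of complex III, stood at 3359, 2261 and 3236 CPM in shEya3_KD1 and 3387, 3504 and 2966 CPM in shEya3_KD2, against 2071, 3333 and 2512 CPM in SCR, and was not called either. The same libraries were low or high for both genes, with replicate 1 low and replicate 2 high in SCR and replicate 2 low in shEya3_KD1. mt-Nd5, a core subunit of the proton-pumping arm, stood at 2560.2, 1623 and 2419 CPM in shEya3_KD1 and 2137, 2189 and 1859.8 CPM in shEya3_KD2, against 1239, 2158 and 1603 CPM in SCR. mt-Atp8, a small subunit of the ATP synthase, stood at 54.7, 36.1 and 49.2 CPM in shEya3_KD1 and 47.0, 51.8 and 47.0 CPM in shEya3_KD2, against 36.2, 52.7 and 40.2 CPM in SCR. mt-Nd6 stood at 33.8, 26.3 and 40.3 CPM in shEya3_KD1 and 40.6, 71.2 and 26.6 CPM in shEya3_KD2, against 38.2, 39.6 and 33.7 CPM in SCR, with replicate 2 of shEya3_KD2 far above the other libraries. None of these 3 was called, and neither were mt-Nd2, mt-Nd4, mt-Nd4l, mt-Atp6 and mt-Co3, with log2 fold changes against SCR from 0.11 to 0.42 for those 5.

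mt-Co1, the catalytic subunit of cytochrome c oxidase, stood at 6345, 7054 and 6159 CPM in shEya3_KD2, against 3839, 5846 and 4476 CPM in SCR, and rose by 0.51 ± 0.18 on the log2 scale (edgeR adjusted p = 0.0372). mt-Co2, which takes up electrons from cytochrome c, stood at 253, 269.5 and 241 CPM in shEya3_KD2, against 171, 239 and 189.8 CPM in SCR, and rose by 0.40 ± 0.15 (edgeR adjusted p = 0.0488). In both the lowest shEya3_KD2 library lay just above the highest SCR library. Both calls depended on single libraries: that of mt-Co1 was lost without replicate 1, 2 or 3 of shEya3_KD2 or without replicate 1 or 3 of SCR (log2 fold changes 0.38 to 0.57, edgeR adjusted p up to 0.161). That of mt-Co2 was lost without any 1 of these or without replicate 1 or 3 of shEya3_KD1 (0.29 to 0.45, edgeR adjusted p up to 0.166). Neither call was made with the length trend of each library removed (edgeR adjusted p = 0.0638 for mt-Co1 and 0.0600 for mt-Co2). Without replicate 2 of SCR, 8 of the 13 genes rose in shEya3_KD1 and 5 in shEya3_KD2, and without replicate 2 of shEya3_KD1, 9 rose in shEya3_KD1. The 13 genes took 1.48% to 2.24% of all counts in shEya3_KD1, 1.78% to 1.99% in shEya3_KD2 and 1.21% to 1.93% in SCR, and the part of this spread between libraries in the calls was not tested.

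mt-Nd3, a small core subunit of complex I, was the only mitochondrial member called against SCR with both hairpins. It stood at 53.6, 53.0 and 62.0 CPM in shEya3_KD1 and at 30.6, 29.4 and 34.3 CPM in shEya3_KD2, against 39.3, 41.9 and 40.4 CPM in SCR. No library of one group reached into another. mt-Nd3 rose by 0.49 ± 0.08 on the log2 scale in shEya3_KD1 (edgeR adjusted p = 6.05e-05) and fell by 0.32 ± 0.08 in shEya3_KD2 (edgeR adjusted p = 0.00354). The difference between the hairpins was -0.81 ± 0.08 for shEya3_KD2 against shEya3_KD1 (edgeR adjusted p = 5.28e-07), and all 3 calls held with each library left out in turn. Its SD in SCR was 1.31 CPM and that of mt-Nd6 was 3.05 CPM, although the libraries differed widely for mt-Nd1 and mt-Cytb.

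A part of the reads of several mitochondrial genes cannot be told from those of nuclear copies. On chromosome 1 (mm10), between 24611535 and 24616197, lie annotated pseudogenes at least 99% identical to mt-Co2, mt-Atp6, mt-Co3, mt-Nd3 and mt-Nd4l and to parts of mt-Co1 and mt-Nd4. Gm28438 (chromosome 1, 24612775 to 24613119, minus strand) matches mt-Nd3 (mitochondrial genome, 9459 to 9806, plus strand) over 345 bases with 1 mismatch, T3C counted from the first base of mt-Nd3. The first 32 bases of both are shown with the differing base in capitals, because nothing else in those 345 bases separates a read of one from a read of the other.
mt-Nd3: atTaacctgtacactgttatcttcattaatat
Gm28438: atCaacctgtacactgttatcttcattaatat
Gm28438 was counted at 43.3, 44.3 and 49.0 CPM in shEya3_KD1 and 26.5, 24.3 and 29.4 CPM in shEya3_KD2, against 30.8, 33.3 and 35.8 CPM in SCR, in the same order as mt-Nd3. Over the 9 libraries the copies of mt-Co2, mt-Co3, mt-Nd3 and mt-Nd4l carried 0.839, 0.939, 0.824 and 1.05 times the CPM of their mitochondrial gene, and that of mt-Atp6 1.35 times. With the counts of the copies added to their mitochondrial genes, 1 rose in shEya3_KD1, and 2 rose and 1 fell in shEya3_KD2. Where a copy follows its gene through the libraries, as Gm28438 did, adding its counts can hardly change a call. The addition also cannot tell from which genome a read came. How reads that match several places were counted is not given in the sources used here. Ranks, sums, parts of all counts and shares of the mitochondrial genes depend on that rule. They describe counted reads and are not measured abundances of the messenger RNAs.

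The make-up of the counts of the 13 mitochondrial genes differed between the groups, for some genes by small amounts with little scatter between libraries. mt-Nd2, another core subunit of complex I, took 11.3%, 11.6% and 11.5% of the counts of the 13 genes in shEya3_KD1 and 9.65%, 9.56% and 9.73% in shEya3_KD2, against 10.8%, 11.1% and 10.9% in SCR. mt-Co1 took 33.3%, 35.4% and 34.6% in shEya3_KD2, against 31.7%, 30.3% and 30.6% in SCR. mt-Cytb took 15.03%, 15.3% and 15.2% in shEya3_KD1, against 17.1%, 17.3% and 17.2% in SCR. The ratio of mt-Nd1 to mt-Cytb counts was 1.45, 1.39 and 1.40 in shEya3_KD1 and 1.05, 0.978 and 1.15 in shEya3_KD2, against 1.18, 1.18 and 1.19 in SCR. The share of mt-Nd3 differed more, at 0.161%, 0.147% and 0.193% in shEya3_KD2, against 0.324%, 0.217% and 0.276% in SCR, as did that of mt-Nd6, at 0.151%, 0.178% and 0.190% in shEya3_KD1, against 0.315%, 0.205% and 0.231% in SCR, and both scattered between libraries of a group. Each of these shares and ratios set the named hairpin libraries apart from the SCR libraries without overlap, although the total mitochondrial level did not. They were chosen after their values were seen and are given without a test, and a ratio within a library shows unequal change, not which gene changed.

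**Figure D3:**
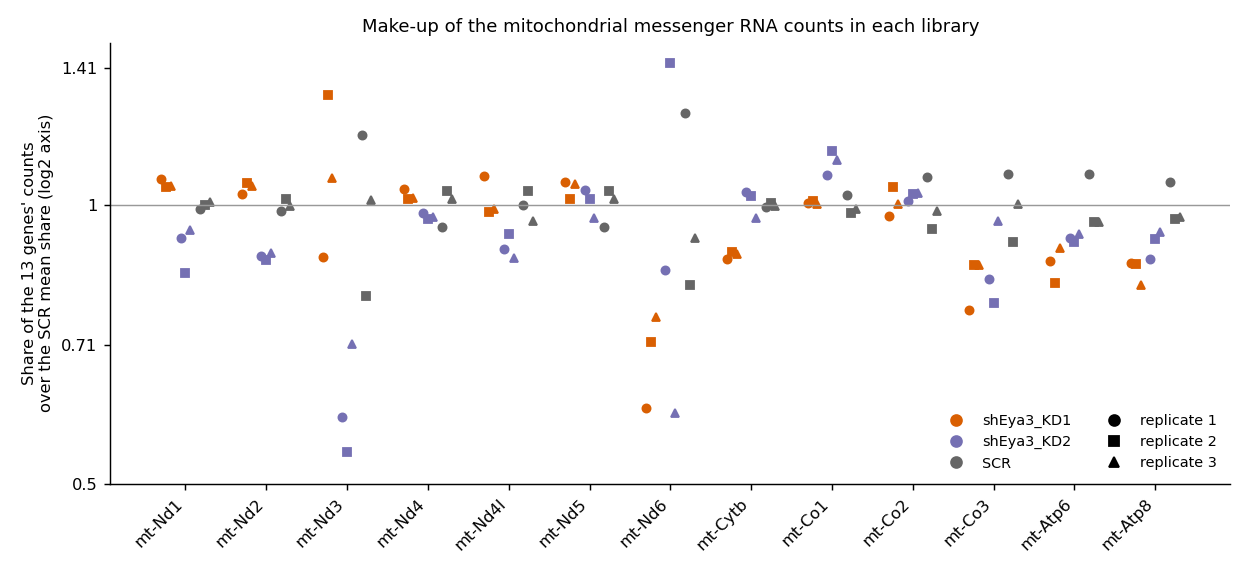
Share of each mitochondrial gene in the counts of the 13 genes, divided by its mean share in SCR (log2 axis), with 1 point per library. mt-Nd1 and mt-Nd2 lie above 1 in shEya3_KD1 and below 1 in shEya3_KD2, mt-Cytb lies below 1 in shEya3_KD1, and the shares of mt-Nd3 and mt-Nd6 scatter most.

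Of the mitochondrial ribosomal RNAs, 1 fell in shEya3_KD2. mt-Rnr2, the large ribosomal RNA, stood at 741, 771 and 901 CPM in shEya3_KD2, against 984, 1327 and 1283 CPM in SCR, and fell by 0.53 ± 0.14 on the log2 scale (edgeR adjusted p = 0.00986). Every shEya3_KD2 library lay below every SCR library, but the call was lost without replicate 2 of shEya3_KD2 (log2 fold change -0.50, edgeR adjusted p = 0.0536). In shEya3_KD1 mt-Rnr2 stood at 1217, 1074 and 1552 CPM and was not called (0.12 ± 0.14, edgeR adjusted p = 0.525). mt-Rnr1, the small ribosomal RNA, stood at 1076, 923 and 1243 CPM in shEya3_KD1 and 721, 785 and 879 CPM in shEya3_KD2, against 836, 1110.0 and 1004 CPM in SCR. Its groups overlapped SCR and neither change against SCR was called (0.16 ± 0.12, edgeR adjusted p = 0.300, and -0.26 ± 0.12, edgeR adjusted p = 0.0940), while it was 0.42 ± 0.12 lower in shEya3_KD2 than in shEya3_KD1 (edgeR adjusted p = 0.0111). How much ribosomal RNA a library keeps also depends on how the library is prepared, and the part of that step was not tested. Of the 7 ribosomal and transfer RNAs of the mitochondrial genome that passed the filter, 3 fell in shEya3_KD2, the others being the transfer RNAs mt-Tm and mt-Tt at under 5 CPM in every library, and none was called in shEya3_KD1. Among all genes tested 22.3% fell in shEya3_KD2. The call of mt-Tt (-0.98 ± 0.31, edgeR adjusted p = 0.0244) was lost without replicate 1 or 2 of shEya3_KD2 or without replicate 1, 2 or 3 of SCR (-0.77 to -1.01, edgeR adjusted p up to 0.0882).

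Complex I, which oxidises NADH, has 36 nuclear members here. In shEya3_KD2 18 of them fell and none rose, with a median of -0.25, and in shEya3_KD1 6 rose and 4 fell, with a median of 0.07. Among all genes tested 22.3% fell and 23% rose in shEya3_KD2, and 24.1% rose and 26.2% fell in shEya3_KD1. The Ndufb subunits, accessory subunits of the membrane arm, fell most often in shEya3_KD2, at 7 of 10, with a median of -0.43. Ndufb10 (chromosome 17, 24722060 to 24724478) stood at 56.8, 50.1 and 61.5 CPM in shEya3_KD2, against 98.2, 92.2 and 91.8 CPM in SCR, and fell by 0.70 ± 0.08 (edgeR adjusted p = 8.98e-06). In shEya3_KD1 it stood at 77.7, 84.7 and 95.2 CPM, overlapping SCR. Ndufb5 stood at 42.9, 38.9 and 48.5 CPM in shEya3_KD2, against 75.0, 71.5 and 69.9 CPM in SCR, a fall of 0.68 ± 0.08 (edgeR adjusted p = 1.08e-05). With 72.0, 81.4 and 86.9 CPM in shEya3_KD1 its difference between shEya3_KD2 and shEya3_KD1 was -0.85 ± 0.08 (edgeR adjusted p = 6.62e-07), the largest among the nuclear members. Ndufb8, the highest nuclear member of complex I at 350 CPM per kilobase, stood at 135, 114 and 174 CPM in shEya3_KD2, against 218, 209.5 and 205 CPM in SCR, and fell by 0.53 ± 0.13 (edgeR adjusted p = 0.00536).

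Ndufa12 and Ndufs7 fell with both hairpins, and Ndufa8 with shEya3_KD1. Ndufa12 (chromosome 10, 94198720 to 94221443), an accessory subunit that in human cells replaces the assembly factor Ndufaf2 late in assembly, stood at 69.1, 76.5 and 72.5 CPM in shEya3_KD1 and 95.8, 89.7 and 101 CPM in shEya3_KD2, against 155, 139.7 and 141 CPM in SCR. The 3 groups did not overlap, and the lowest was shEya3_KD1. Ndufa12 fell by 0.98 ± 0.07 on the log2 scale in shEya3_KD1 (edgeR adjusted p = 1.28e-08) and by 0.56 ± 0.07 in shEya3_KD2 (edgeR adjusted p = 1.02e-05). It was 0.42 ± 0.07 higher in shEya3_KD2 than in shEya3_KD1 (edgeR adjusted p = 0.000114), 1 of 3 nuclear members with a call in that direction. Ndufs7, which carries the iron-sulfur cluster next to ubiquinone, stood at 56.0, 61.8 and 60.6 CPM in shEya3_KD1 and 66.1, 57.9 and 72.0 CPM in shEya3_KD2, against 101, 93.5 and 91.4 CPM in SCR. Its falls were 0.66 ± 0.08 (edgeR adjusted p = 3.93e-06) and 0.50 ± 0.08 (edgeR adjusted p = 0.000106). Ndufa8, an accessory subunit on the intermembrane side, stood at 33.6, 38.7 and 38.5 CPM in shEya3_KD1 and 49.0, 42.5 and 51.3 CPM in shEya3_KD2, against 55.8, 51.2 and 52.9 CPM in SCR. It fell in shEya3_KD1 (-0.51 ± 0.08, edgeR adjusted p = 6.22e-05), was not called in shEya3_KD2 (-0.11 ± 0.08, edgeR adjusted p = 0.257), and differed between the hairpins by 0.40 ± 0.08 (edgeR adjusted p = 0.000689).

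Other complex I genes were higher with shEya3_KD1. Ndufv3, an accessory subunit of the NADH-binding module, stood at 58.3, 59.8 and 61.1 CPM in shEya3_KD1 and 37.9, 37.2 and 42.3 CPM in shEya3_KD2, against 44.1, 42.9 and 42.1 CPM in SCR. It rose by 0.49 ± 0.06 in shEya3_KD1 (edgeR adjusted p = 1.05e-05) and its shEya3_KD2 libraries overlapped SCR. Ndufa7 stood at 86.1, 96.7 and 112 CPM in shEya3_KD1 and 52.8, 46.1 and 76.1 CPM in shEya3_KD2, against 80.1, 80.6 and 75.2 CPM in SCR. Neither change against SCR was called, while the difference of -0.73 ± 0.16 between shEya3_KD2 and shEya3_KD1 was (edgeR adjusted p = 0.00306).

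Complex II, succinate dehydrogenase, also belongs to the citric acid cycle, and its 4 subunits had similar levels per length, from 108 to 137 CPM per kilobase. Sdha, the flavoprotein, stood at 228, 230.0 and 199.8 CPM in shEya3_KD1 and 256, 261 and 239 CPM in shEya3_KD2, against 277, 269 and 274 CPM in SCR. It fell in shEya3_KD1 (-0.30 ± 0.07, edgeR adjusted p = 0.00297) and was not called in shEya3_KD2 (-0.07 ± 0.07, edgeR adjusted p = 0.477). Sdhb, the iron-sulfur subunit, stood at 106, 93.7 and 115 CPM in shEya3_KD2, against 146, 129 and 133 CPM in SCR, and fell by 0.32 ± 0.08 (edgeR adjusted p = 0.00334). Sdhd, a membrane anchor, stood at 114, 89.2 and 138 CPM in shEya3_KD2, against 169.9, 154 and 157 CPM in SCR, and fell by 0.45 ± 0.12 (edgeR adjusted p = 0.0101). Sdhc, the other anchor, was not called in either comparison (0.05 ± 0.07 in shEya3_KD1 and -0.04 ± 0.07 in shEya3_KD2, edgeR adjusted p = 0.584 and 0.693).

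Of the 8 nuclear members of complex III, 1 rose and 2 fell in shEya3_KD1, and 3 fell in shEya3_KD2. In shEya3_KD1 that is 12.5% and 25%, near or below the 24.1% and 26.2% of all genes tested. In shEya3_KD2 it is 37.5%, beside 22.3% of all genes tested. Uqcr11 (chromosome 10, 80402997 to 80406830), a small subunit of the complex, stood at 118, 133 and 139 CPM in shEya3_KD1 and 102, 88.7 and 115 CPM in shEya3_KD2, against 206, 193 and 187 CPM in SCR. All hairpin libraries lay below all SCR libraries. Uqcr11 fell by 0.57 ± 0.09 (edgeR adjusted p = 5.48e-05) and by 0.89 ± 0.09 (edgeR adjusted p = 1.31e-06), and was 0.32 ± 0.09 lower in shEya3_KD2 than in shEya3_KD1 (edgeR adjusted p = 0.00626). Uqcrb, which binds near the ubiquinone site, stood at 52.6, 61.3 and 64.3 CPM in shEya3_KD1 and 51.1, 47.9 and 57.6 CPM in shEya3_KD2, against 90.2, 83.0 and 83.0 CPM in SCR, and fell by 0.50 ± 0.08 (edgeR adjusted p = 9.54e-05) and 0.66 ± 0.08 (edgeR adjusted p = 1.30e-05). Uqcrh, the hinge subunit near cytochrome c, stood at 128, 112 and 179.8 CPM in shEya3_KD2, against 194, 195 and 190.3 CPM in SCR (-0.42 ± 0.15, edgeR adjusted p = 0.0405). Its call was lost without replicate 1 or 2 of shEya3_KD2 or without replicate 1, 2 or 3 of SCR (-0.29 to -0.43, edgeR adjusted p up to 0.107). Uqcrc1, a core subunit and the highest nuclear member of the complex in CPM, stood at 255, 262 and 244 CPM in shEya3_KD1, against 229, 212 and 223 CPM in SCR. It rose by 0.22 ± 0.07 (edgeR adjusted p = 0.0133). That call was lost without replicate 2 of shEya3_KD1 or replicate 2 or 3 of SCR (log2 fold changes 0.18 to 0.21, edgeR adjusted p up to 0.0795).

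In complex IV, cytochrome c oxidase, 8 of 12 nuclear members fell in shEya3_KD2 and none rose, with a median of -0.33, while in shEya3_KD1 1 rose and 2 fell. The shares of all genes tested were 22.3% fallen and 23% risen in shEya3_KD2, and 24.1% risen and 26.2% fallen in shEya3_KD1. Cox7b2 (chromosome 5, 71442824 to 71548205), a paralog of Cox7b, changed most. It stood at 24.8, 23.0 and 36.6 CPM in shEya3_KD2, against 58.8, 63.0 and 60.1 CPM in SCR, and fell by 1.059 ± 0.18 on the log2 scale (edgeR adjusted p = 0.000799). In shEya3_KD1 it stood at 42.0, 49.3 and 64.0 CPM, reaching into the SCR range, and it was 0.85 ± 0.18 lower in shEya3_KD2 than in shEya3_KD1 (edgeR adjusted p = 0.00269). Cox7b itself stood at 109, 93.0 and 171 CPM in shEya3_KD2, against 159, 167 and 158 CPM in SCR, and was not called (-0.33 ± 0.21, edgeR adjusted p = 0.228). Cox6b1, which faces cytochrome c, stood at 198, 224 and 241 CPM in shEya3_KD1 and 173, 147 and 213 CPM in shEya3_KD2, against 294, 285 and 284 CPM in SCR. It fell by 0.65 ± 0.11 in shEya3_KD2 (edgeR adjusted p = 0.000219). Its fall of 0.36 ± 0.10 in shEya3_KD1 (edgeR adjusted p = 0.0113) was lost without replicate 1 of shEya3_KD1 (-0.29, edgeR adjusted p = 0.0542). Cox4i1, the highest nuclear subunit of the complex in CPM, stood at 292, 252 and 372 CPM in shEya3_KD2, against 416, 389 and 392 CPM in SCR (-0.34 ± 0.12, edgeR adjusted p = 0.0354). This call was lost without replicate 1 or 2 of shEya3_KD2 or without replicate 1, 2 or 3 of SCR (-0.22 to -0.36, edgeR adjusted p up to 0.103).

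Several complex IV subunits come in isoforms, a widespread form and one known from muscle or other tissues. In the Cox4i, Cox6a, Cox6b, Cox7a and Cox8 sets the widespread forms carried nearly all the counts, while Cox7b2 stood at 86.4 CPM per kilobase over the 9 libraries, beside 151 CPM per kilobase for Cox7b. Cox6a1 stood at 246, 215 and 260.3 CPM in shEya3_KD2, against 404, 364 and 360.0 CPM in SCR, and fell by 0.60 ± 0.08 (edgeR adjusted p = 2.38e-05). Cox6a2, the form known from heart and skeletal muscle, stood at 1.91, 2.09 and 2.09 CPM in shEya3_KD1 and 0.702, 0.937 and 0.519 CPM in shEya3_KD2, against 0.242, 0.358 and 0.196 CPM in SCR, below the minimum for membership. It rose by 2.92 ± 0.25 (edgeR adjusted p = 1.48e-07) and 1.414 ± 0.29 (edgeR adjusted p = 0.00125) on the log2 scale. Cox7a1, also a muscle form, had 51 counts in the 3 shEya3_KD1 libraries together and 21 in shEya3_KD2, against 3 in SCR, while Cox7a2, its widespread counterpart, stood at 112, 95.1 and 149 CPM in shEya3_KD2, against 175, 169 and 163 CPM in SCR. Cox7a2 fell by 0.46 ± 0.14 (edgeR adjusted p = 0.0238), a call lost without replicate 1 of shEya3_KD2 or replicate 1 or 2 of SCR (-0.43 to -0.46, edgeR adjusted p up to 0.0697). Cox4i2, Cox6b2, Cox8b and Ndufa4l2 had at most 5 counts in any group, and Cox8c had none.

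Complex V, the ATP synthase, held the highest nuclear member, Atp5b, at 862 CPM per kilobase. Of its 16 nuclear members 9 fell and 1 rose in shEya3_KD2, with a median of -0.33, and 2 rose and 3 fell in shEya3_KD1. The shares of all genes tested were 22.3% fallen and 23% risen in shEya3_KD2, and 24.1% risen and 26.2% fallen in shEya3_KD1. Atp5b (chromosome 10, 128083273 to 128090391), the catalytic beta subunit, stood at 1461, 1557 and 1439.9 CPM in shEya3_KD1 and 1471, 1308 and 1466 CPM in shEya3_KD2, against 2165, 1953 and 2044 CPM in SCR. It fell by 0.45 ± 0.07 (edgeR adjusted p = 9.30e-05) and by 0.49 ± 0.07 (edgeR adjusted p = 6.40e-05). Atp5a1, the alpha subunit that alternates with beta in the same ring, stood at 1144, 1166 and 1054 CPM in shEya3_KD1 and 1043, 949 and 994 CPM in shEya3_KD2, against 1154, 1034 and 1093 CPM in SCR. It was not called (0.06 ± 0.07, edgeR adjusted p = 0.536, and -0.09 ± 0.07, edgeR adjusted p = 0.346). Atp5d, of the central stalk, stood at 287, 293 and 268 CPM in shEya3_KD1 and 302, 283 and 301 CPM in shEya3_KD2, against 446, 412 and 419.6 CPM in SCR, and fell by 0.57 ± 0.07 (edgeR adjusted p = 3.34e-06) and 0.48 ± 0.07 (edgeR adjusted p = 3.36e-05).

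Atp5f1 (chromosome 3, 105942698 to 105960099), subunit b of the stalk that holds the catalytic ring in place, was called in opposite directions with the hairpins. It stood at 348, 392 and 421 CPM in shEya3_KD1 and 213, 177 and 243 CPM in shEya3_KD2, against 306, 277 and 291 CPM in SCR, without overlap between any of the 3 groups. It rose by 0.43 ± 0.10 in shEya3_KD1 (edgeR adjusted p = 0.00183) and fell by 0.42 ± 0.10 in shEya3_KD2 (edgeR adjusted p = 0.00280). Atp5k, subunit e of the membrane part, stood at 89.2, 71.0 and 111 CPM in shEya3_KD2, against 169.8, 157 and 159 CPM in SCR, and fell by 0.79 ± 0.15 (edgeR adjusted p = 0.00150). Atp5j2, subunit f, stood at 209, 245 and 267 CPM in shEya3_KD1 and 139, 113 and 162 CPM in shEya3_KD2, against 218, 211 and 205 CPM in SCR, and was 0.77 ± 0.11 lower in shEya3_KD2 than in shEya3_KD1 (edgeR adjusted p = 7.75e-05). Atp5mpl, a small proteolipid of the synthase, stood at 78.1, 86.6 and 109 CPM in shEya3_KD1 and 69.0, 61.5 and 97.0 CPM in shEya3_KD2, against 57.4, 59.9 and 53.0 CPM in SCR. It rose by 0.70 ± 0.16 in shEya3_KD1 (edgeR adjusted p = 0.00395). Its rise of 0.46 ± 0.16 in shEya3_KD2 (edgeR adjusted p = 0.0368) was lost without replicate 3 of shEya3_KD2 or without replicate 1, 2 or 3 of SCR (0.26 to 0.50, edgeR adjusted p up to 0.108).

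The c ring of complex V is a single protein made from 3 genes, and they differed. Atp5g1 stood at 74.5, 85.1 and 90.1 CPM in shEya3_KD1 and 81.9, 69.9 and 93.1 CPM in shEya3_KD2, against 111, 104 and 106 CPM in SCR. It fell by 0.34 ± 0.09 in both comparisons (edgeR adjusted p = 0.00519 and 0.00631). Atp5g2 was not called (-0.02 ± 0.07 in both, edgeR adjusted p = 0.791 and 0.843). Atp5g3, the highest of the 3 at 316 CPM per kilobase, stood at 249, 270.3 and 278 CPM in shEya3_KD1 and 178, 157 and 211 CPM in shEya3_KD2, against 253, 220.4 and 225 CPM in SCR. It fell by 0.31 ± 0.09 in shEya3_KD2 (edgeR adjusted p = 0.0114), a call lost without replicate 1 of SCR (-0.25, edgeR adjusted p = 0.0621), and was 0.52 ± 0.09 lower in shEya3_KD2 than in shEya3_KD1 (edgeR adjusted p = 0.000232).

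The other 14 nuclear members are assembly factors and associated proteins, of which 5 rose and 3 fell in shEya3_KD1, and 5 fell and none rose in shEya3_KD2. Among all genes tested 24.1% rose and 26.2% fell in shEya3_KD1, and 22.3% fell and 23% rose in shEya3_KD2. Ndufaf2, the assembly factor whose place Ndufa12 takes, stood at 21.1, 24.8 and 25.4 CPM in shEya3_KD1 and 19.97, 18.4 and 21.4 CPM in shEya3_KD2, against 39.1, 33.0 and 33.3 CPM in SCR. It fell by 0.55 ± 0.09 (edgeR adjusted p = 0.000102) and 0.77 ± 0.09 (edgeR adjusted p = 7.89e-06). Cox7a2l (chromosome 17, 83501918 to 83517330), which links complexes III and IV in supercomplexes, stood at 218, 238 and 235 CPM in shEya3_KD1 and 157, 145 and 173 CPM in shEya3_KD2, against 173, 159 and 165 CPM in SCR. It rose by 0.50 ± 0.07 in shEya3_KD1 (edgeR adjusted p = 2.52e-05), overlapped SCR in shEya3_KD2, and was 0.51 ± 0.07 lower in shEya3_KD2 than in shEya3_KD1 (edgeR adjusted p = 2.26e-05). Ndufaf5, a complex I assembly factor, stood at 14.2, 15.8 and 20.6 CPM in shEya3_KD1 and 10.1, 8.90 and 13.5 CPM in shEya3_KD2, against 11.6, 12.3 and 11.6 CPM in SCR, and rose by 0.53 ± 0.14 in shEya3_KD1 (edgeR adjusted p = 0.00815).

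**Figure D4:**
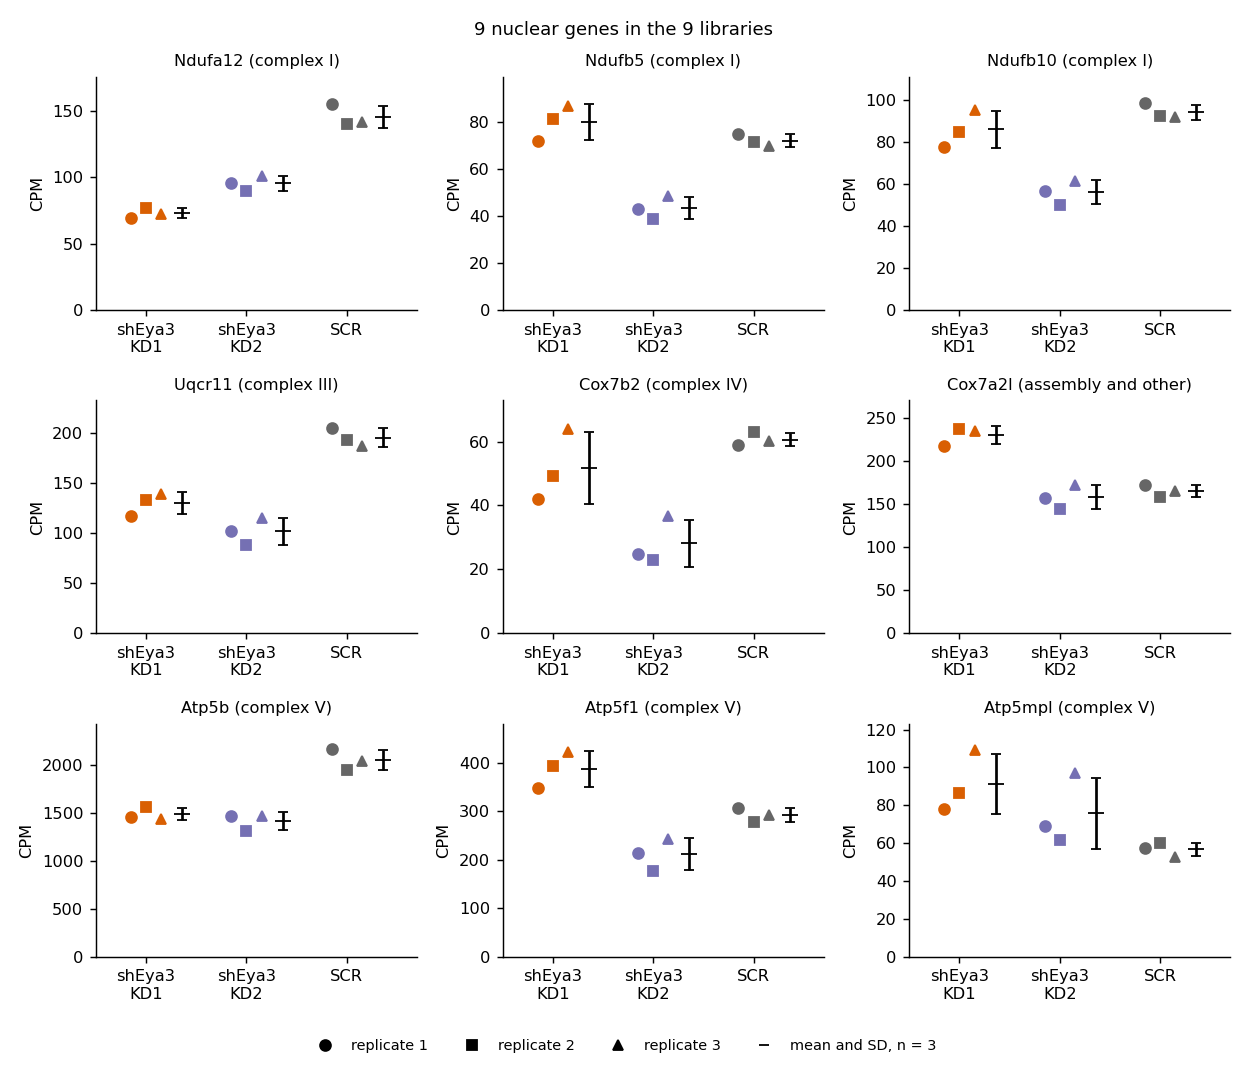
CPM of 9 nuclear members in each library, with the group mean and SD (n = 3) as a bar beside the points, each panel from 0. Ndufa12, Uqcr11 and Atp5b are below SCR in both hairpin groups, Ndufb5, Ndufb10 and Cox7b2 are lowest in shEya3_KD2, Cox7a2l is high in shEya3_KD1, Atp5f1 lies on opposite sides of SCR, and Atp5mpl is above SCR with both.

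Between the hairpins, 56 of the 90 nuclear members were lower in shEya3_KD2 than in shEya3_KD1 and 3 were higher, with a median of -0.30, where 22.5% of all genes tested were lower and 27% higher. By complex the lower members were 24 of 36 in complex I, 2 of 4 in complex II, 4 of 8 in complex III, 7 of 12 in complex IV, 10 of 16 in complex V and 9 of 14 of the assembly factors. The higher ones were Ndufa12, Ndufa8 and Sdha. The call of Sdha (0.23 ± 0.07, edgeR adjusted p = 0.0156) was lost without replicate 3 of shEya3_KD1 or replicate 1 of shEya3_KD2 (0.17 and 0.22, edgeR adjusted p = 0.0689 and 0.0546). Of the mitochondrial genes only mt-Nd3 was called. Eya3 itself was 0.70 ± 0.08 higher in shEya3_KD2 than in shEya3_KD1 (edgeR adjusted p = 6.98e-06).

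The nuclear members have short transcripts, with a median of 707.5 bases, and short transcripts of all kinds differed between libraries. Among all genes of up to 1000 bases the median deviation from the group mean was -0.07, 0.02 and 0.03 on the log2 CPM scale in replicates 1, 2 and 3 of shEya3_KD1, 0.00, -0.09 and 0.07 in shEya3_KD2, and 0.03, -0.03 and -0.01 in SCR. For the nuclear members it was -0.15, 0.02 and 0.12 in shEya3_KD1, -0.00, -0.17 and 0.18 in shEya3_KD2, and 0.06, -0.03 and -0.03 in SCR, so replicate 1 of shEya3_KD1 and replicate 2 of shEya3_KD2 were low and both replicates 3 of the hairpin groups were high. The median log2 fold change of all genes in shEya3_KD2 against SCR was -0.06 up to 1000 bases and 0.19 over 4000 bases. Nuclear members of up to 1000 bases had a median of -0.31 (n = 64) and those over 1000 bases -0.16 (n = 26). With the length trend of each library removed, 48 of the 90 nuclear members fell and 2 rose in shEya3_KD2, 15 rose and 20 fell in shEya3_KD1, and 50 were lower and 6 higher in shEya3_KD2 than in shEya3_KD1. With the same correction 26.1% of all genes tested fell and 21% rose in shEya3_KD2, 24.9% rose and 28.1% fell in shEya3_KD1, and 25.3% were lower and 25.8% higher in shEya3_KD2 than in shEya3_KD1.

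**Figure D5:**
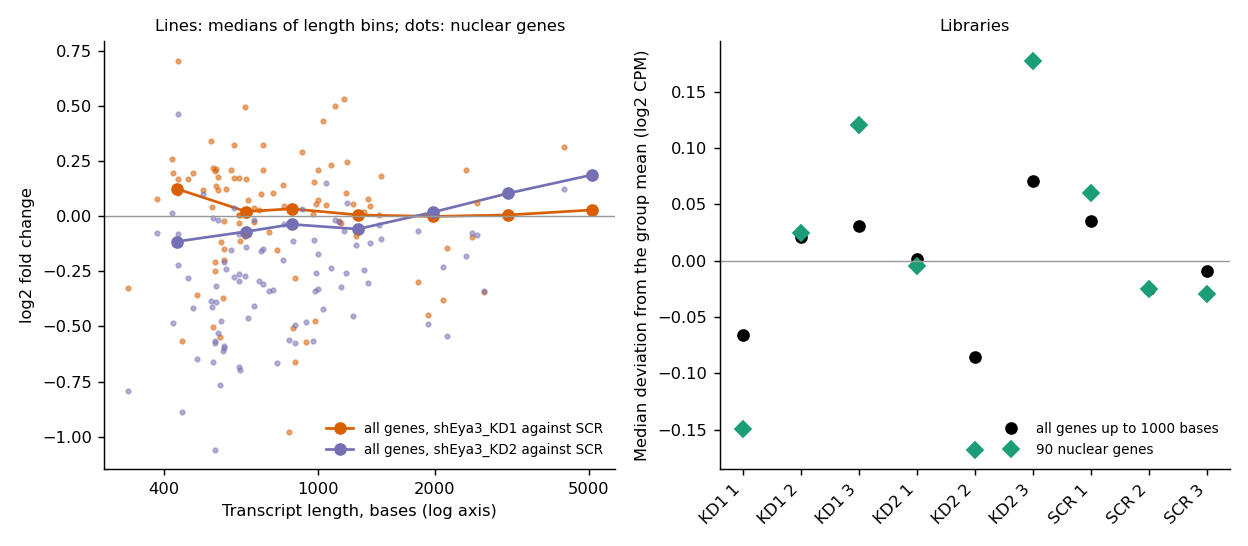
Left, median log2 fold change of all genes against SCR in bins of transcript length (lines, log axis) with the 90 nuclear members as dots in the same colours. Right, median deviation of each library from its group mean (log2 CPM) for all genes of up to 1000 bases and for the 90 nuclear members, which are low or high in the same libraries.

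Genes that serve the same organelle were counted in lists of known members, to be read beside the 24.1% of all genes tested that rose and 26.2% that fell in shEya3_KD1, and the 23% that rose and 22.3% that fell in shEya3_KD2. Several of these lists are short, and some of their counts lie near those shares. The proteins of the mitochondrial ribosome, which translates the 13 messenger RNAs, were mostly lower where called in shEya3_KD2: of 78 tested, 39 fell and 1 rose in shEya3_KD2, with a median of -0.24, and 11 rose and 12 fell in shEya3_KD1, with a median of -0.04. Mrpl42 stood at 94.9, 85.5 and 99.9 CPM in shEya3_KD2, against 166, 162 and 157 CPM in SCR, and fell by 0.74 ± 0.07 (edgeR adjusted p = 1.53e-06). Mrps21 was called in opposite directions, 0.64 ± 0.08 in shEya3_KD1 (edgeR adjusted p = 5.31e-06) and -0.40 ± 0.08 in shEya3_KD2 (edgeR adjusted p = 0.000757), and was 1.04 ± 0.08 lower in shEya3_KD2 than in shEya3_KD1 (edgeR adjusted p = 4.38e-08). Of 36 further assembly factors 4 rose and 14 fell in shEya3_KD2, and 8 rose and 10 fell in shEya3_KD1. Acad9, a complex I assembly factor, stood at 33.9, 31.0 and 30.5 CPM in shEya3_KD2, against 54.2, 48.5 and 48.9 CPM in SCR, and fell by 0.62 ± 0.07 (edgeR adjusted p = 8.93e-06). Atpaf1, which helps assemble the catalytic part of the ATP synthase, stood at 6.19, 5.04 and 6.27 CPM in shEya3_KD2, against 0.363, 0.219 and 0.220 CPM in SCR, and rose by 4.48 ± 0.19 (edgeR adjusted p = 2.98e-10). In shEya3_KD1 it stood at 0.0744, 0.0704 and 0.0871 CPM and fell by 1.75 ± 0.43 (edgeR adjusted p = 0.00301). Cox15, needed to make the heme of complex IV, stood at 77.0, 71.0 and 68.1 CPM in shEya3_KD1, against 133, 124 and 126 CPM in SCR, and fell by 0.80 ± 0.07 (edgeR adjusted p = 8.46e-08). With 146, 149.5 and 152 CPM in shEya3_KD2 it rose by 0.27 ± 0.06 (edgeR adjusted p = 0.00304), a call lost with the length trend removed (0.10, edgeR adjusted p = 0.200). Of 12 genes for cytochrome c and ubiquinone 2 rose and 5 fell in shEya3_KD2 and 4 rose and 3 fell in shEya3_KD1. Cycs, cytochrome c itself, stood at 91.3, 105 and 103 CPM in shEya3_KD1 and 79.9, 71.6 and 82.2 CPM in shEya3_KD2, against 130.2, 115 and 119 CPM in SCR, and fell in both (-0.26 ± 0.07, edgeR adjusted p = 0.00798, and -0.59 ± 0.07, edgeR adjusted p = 1.73e-05).

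The citric acid cycle supplies the NADH and succinate. Of its 17 genes 2 rose and 5 fell in shEya3_KD2, with a median of 0.00, and 5 rose and 2 fell in shEya3_KD1. Between the hairpins 7 were lower and 1 higher in shEya3_KD2 than in shEya3_KD1, beside 22.5% and 27% of all genes. Pdha1, of the pyruvate dehydrogenase complex that feeds the cycle, stood at 181, 178 and 164 CPM in shEya3_KD1 and 179.8, 175 and 179 CPM in shEya3_KD2, against 129, 121 and 127 CPM in SCR, and rose in both (0.49 ± 0.06, edgeR adjusted p = 9.83e-06, and 0.55 ± 0.06, edgeR adjusted p = 7.16e-06). Of 11 mitochondrial chaperones and proteases 4 rose and 2 fell in shEya3_KD2, and 5 rose and 1 fell in shEya3_KD1. Among 9 genes that copy mitochondrial DNA 1 rose and 1 fell in shEya3_KD2, and 2 rose and 1 fell in shEya3_KD1. Of 24 genes that transcribe or process mitochondrial RNA 6 rose and 3 fell in shEya3_KD2, and 10 rose and 3 fell in shEya3_KD1. Several of these counts lie near the shares of all genes tested. Those were 23% risen and 22.3% fallen in shEya3_KD2, and 24.1% risen and 26.2% fallen in shEya3_KD1. Grsf1, which binds mitochondrial RNA in its granules, stood at 91.8, 94.5 and 91.3 CPM in shEya3_KD1 and 69.7, 70.1 and 67.5 CPM in shEya3_KD2, against 64.5, 58.5 and 59.3 CPM in SCR, and rose by 0.63 ± 0.06 (edgeR adjusted p = 7.72e-07) and 0.23 ± 0.06 (edgeR adjusted p = 0.00692). Fastk, of a family of mitochondrial RNA-binding proteins, stood at 120.0, 112 and 118 CPM in shEya3_KD1 and 81.5, 77.9 and 82.4 CPM in shEya3_KD2, against 67.5, 73.6 and 70.5 CPM in SCR, and rose by 0.75 ± 0.06 (edgeR adjusted p = 1.13e-07) and 0.24 ± 0.06 (edgeR adjusted p = 0.00593).

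Among 8 regulators of mitochondrial biogenesis 4 rose and 2 fell in shEya3_KD2, and 2 rose and 1 fell in shEya3_KD1. The shares of all genes tested were 23% risen and 22.3% fallen in shEya3_KD2, and 24.1% risen and 26.2% fallen in shEya3_KD1. Ppargc1a, the co-activator PGC-1 alpha, was low, at 1.64, 1.48 and 1.48 CPM in shEya3_KD1 and 0.171, 0.252 and 0.141 CPM in shEya3_KD2, against 0.464, 0.577 and 0.733 CPM in SCR. No group overlapped another, and it rose by 1.406 ± 0.21 in shEya3_KD1 (edgeR adjusted p = 5.47e-05) and fell by 1.64 ± 0.31 in shEya3_KD2 (edgeR adjusted p = 0.000609). Its relative Ppargc1b, which had the higher counts, stood at 18.7, 20.5 and 17.2 CPM in shEya3_KD2, against 13.6, 15.9 and 15.9 CPM in SCR, and rose by 0.36 ± 0.09 (edgeR adjusted p = 0.00463). Yy1, a transcription factor known to bind promoters of genes of this pathway, stood at 168, 165 and 154 CPM in shEya3_KD1 and 210.1, 219 and 201 CPM in shEya3_KD2, against 140.2, 139 and 139 CPM in SCR. It rose by 0.24 ± 0.06 (edgeR adjusted p = 0.00628) and 0.64 ± 0.06 (edgeR adjusted p = 2.02e-06).

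Promoters of oxidative phosphorylation genes are known for sites of NRF1, of ETS-family factors such as GABP, and of YY1. In RefSeq promoter sequences (GRCm38.p6, 250 bases before to 50 after the start) 77 of the 90 nuclear members had an entry. The letters GCGCA, any base and GCGC in a row, for NRF1, were found on either strand in 26.0% of these 77, against 4.78% of all 27025 promoters. CCGGAAG for ETS factors was found in 26.0% against 9.12%, AAGATGGC for YY1 in 12.99% against 2.88%, and any of the 3 in 55.8% against 15.2%. Of the members with the NRF1 letters 12 of 20 fell in shEya3_KD2, of those with the ETS letters 10 of 20, and of those with the YY1 letters 9 of 10, against 29 of 57, 31 of 57 and 32 of 67 without them. In shEya3_KD1 4 of 20, 4 of 20 and 2 of 10 fell, against 10 of 57, 10 of 57 and 12 of 67 without the letters. Among all genes tested 22.3% fell in shEya3_KD2 and 26.2% in shEya3_KD1, and the shEya3_KD1 counts lie below that share. How often other genes with the same letters fell was not counted, and the YY1 count rests on 10 members. The 77 members were kept for a mean of at least 5 CPM, while the 27025 promoters were taken at any level of their gene. How often promoters of other genes at such levels hold the letters was not counted. These counts describe letters in a window, carry no test, and matches do not show that a factor is bound. The promoters of 4 members described above are shown because each holds at least 1 of these letters, which are in capitals: Ndufs6 (a complex I subunit that fell with both hairpins, chr13:73328433-73328732, minus strand) holds the NRF1 letters on the other strand and the YY1 letters, Uqcr11 (chr10:80406772-80407071, minus) the ETS letters, Atp5k (chr5:108434350-108434649, minus) the NRF1 letters, which read the same on both strands here, and the ETS letters on the other strand, and Atp5f1 (chr3:105959214-105959513, minus) the YY1 letters on the other strand.
Ndufs6: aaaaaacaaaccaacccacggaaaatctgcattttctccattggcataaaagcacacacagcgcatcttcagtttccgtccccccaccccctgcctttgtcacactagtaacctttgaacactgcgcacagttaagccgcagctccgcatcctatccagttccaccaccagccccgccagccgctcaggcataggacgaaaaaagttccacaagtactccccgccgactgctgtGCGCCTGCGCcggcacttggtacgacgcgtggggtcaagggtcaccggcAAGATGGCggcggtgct
Uqcr11: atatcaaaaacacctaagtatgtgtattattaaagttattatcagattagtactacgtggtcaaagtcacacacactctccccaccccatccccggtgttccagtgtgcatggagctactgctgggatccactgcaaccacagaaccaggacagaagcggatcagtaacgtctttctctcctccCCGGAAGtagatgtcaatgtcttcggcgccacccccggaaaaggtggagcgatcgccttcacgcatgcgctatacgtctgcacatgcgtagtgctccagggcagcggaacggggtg
Atp5k: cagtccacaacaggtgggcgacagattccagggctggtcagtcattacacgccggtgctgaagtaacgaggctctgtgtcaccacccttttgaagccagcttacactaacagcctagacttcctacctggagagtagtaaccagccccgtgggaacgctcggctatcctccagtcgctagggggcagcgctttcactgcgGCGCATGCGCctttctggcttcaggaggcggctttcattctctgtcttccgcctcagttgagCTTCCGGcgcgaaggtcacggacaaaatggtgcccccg
Atp5f1: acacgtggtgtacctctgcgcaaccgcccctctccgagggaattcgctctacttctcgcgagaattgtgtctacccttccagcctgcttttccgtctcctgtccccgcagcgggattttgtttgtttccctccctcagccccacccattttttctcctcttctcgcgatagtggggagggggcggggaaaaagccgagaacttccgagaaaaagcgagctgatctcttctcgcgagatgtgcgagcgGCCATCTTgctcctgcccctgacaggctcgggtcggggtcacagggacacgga

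Ndufs6, which binds zinc in the NADH-binding module, stood at 70.6, 85.5 and 91.9 CPM in shEya3_KD1 and 68.3, 58.8 and 78.8 CPM in shEya3_KD2, against 115, 108 and 103 CPM in SCR, and fell by 0.37 ± 0.10 (edgeR adjusted p = 0.00763) and 0.61 ± 0.10 (edgeR adjusted p = 0.000292). Reads of neighbours may add to some of these values. In the annotation 22 of the 90 nuclear members overlap another gene above 1 CPM, among them Atp5f1 with Wdr77, Ndufb5 with Mrpl47, Ndufaf2 with Smim15, Atp5d with Cbarp and Ndufs6 with Mrpl36, and the strand setting of the counting is not given in the sources used here.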

How the data were processed

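The libraries were made with a NuGEN mRNA-Seq kit, as the labels' protocols state. The submitters' processing notes list FastQC, MultiQC and STAR with mm10 as the build and no versions. Which tool counted the reads, and whether by strand, is not given in the sources used here. Values as deposited are raw counts per gene symbol in 9 libraries, taken as the authors left them.

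CPM were counts over the library total, and levels per kilobase were CPM over the transcript length. That length was the median over a gene's protein-coding transcripts in the annotation, short isoforms included, such as 533 bases for Uqcrc1. Ranks per kilobase among nuclear genes therefore depend in part on the annotated isoforms. Genes that passed filterByExpr were tested with edgeR 4.0.16 (R 4.3.3; TMM scaling, robust quasi-likelihood fit of all 9 libraries by group), with Benjamini-Hochberg adjustment over 15914 genes and a threshold of 0.05. Replicates within a group differed beyond counting noise, with a chi-square of 9.24 to 45.2 per degree of freedom, and none was a repeat. The test was also run on simulated counts with few genes changed and no length trend. Far more genes were called in these data, so that run does not show how the test behaves here. DESeq2 1.42.0 and limma 3.58.1 served as alternatives. Copies of mitochondrial genes were found with blastn 2.17.0, and coordinates come from the mm10 annotation.

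Genes to name were taken from all mitochondrial members, the 5 nuclear members that rose or fell most in each comparison, the highest of each complex, isoform sets, complex II, and up to 3 per further list, not all of which are described. Uqcrb, Uqcrh and Ndufs6 were added after their values were seen. Atp5a1, Cox7b and mt-Rnr1 are described beside Atp5b, Cox7b2 and mt-Rnr2, outside that rule. Their calls were not followed with libraries left out. The members and lists were chosen with earlier results of these data known.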

Additional observations from a re-analysis of the deposited data

Results flagged for a closer look

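A few genes were called in opposite directions with the hairpins against the shared SCR libraries, and the difference between shEya3_KD2 and shEya3_KD1 was tested in the same fit. Among the oxidative phosphorylation genes these were Atp5f1, at -0.85 on the log2 scale for shEya3_KD2 against shEya3_KD1 (edgeR adjusted p = 5.31e-06), and mt-Nd3, at -0.81 (edgeR adjusted p = 5.28e-07). Among the genes of the further mitochondrial lists they were Atpaf1 at 6.23, Cox15 at 1.08, Mrps21 at -1.04 and Ppargc1a at -3.04. In each the shEya3_KD2 and shEya3_KD1 libraries lay on opposite sides of the SCR libraries. Atpaf1 and Ppargc1a were low in CPM, and the call of Cox15 in shEya3_KD2 against SCR was not made with the length trend of each library removed.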

How the results depend on the processing

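The alternatives were other size factors (RLE), DESeq2, limma-voom, other filters on low counts, other members, only the 2 groups compared, the replicate block, library sizes without mitochondrial genes, each library left out, and, chosen after seeing the data, counts of nuclear copies added and the length trend removed. Of the counts of called members 121 stayed within 1.5 times of the value reported and 11 did not. All 75 alternative values of the sums moved by less than the larger SD between libraries of the groups compared. Leaving out 1 of 3 libraries can hardly move a mean by that much, so this comparison says little about those values. The log2 ratio of the mitochondrial sum of shEya3_KD2 over shEya3_KD1 changed sign, from -0.205 to 0.0707, with 1 library left out. Against SCR the ratios kept their direction, at 0.199 to 0.542 in shEya3_KD1 and 0.158 to 0.502 in shEya3_KD2 for the mitochondrial sum and -0.110 to -0.0245 and -0.443 to -0.286 for the nuclear sum. The members that rose in shEya3_KD1, 16 in the report, were 25 when only the 2 groups compared were fitted and 7 to 23 with 1 library left out. Those that rose in shEya3_KD2, 3 in the report, were 1 with the replicate number as a block and 0 to 5 with 1 library left out. Those higher in shEya3_KD2 than in shEya3_KD1, 3 in the report, were 6 with the length trend removed and 2 to 5 with 1 library left out. The cause was not tested. The fallen members were 13 to 17 in shEya3_KD1, 35 to 59 in shEya3_KD2 and 40 to 69 in shEya3_KD2 against shEya3_KD1 with 1 library left out. The replicate numbers share no stated batch. Same-numbered libraries of shEya3_KD2 and SCR correlated in their deviations at 0.27, 0.46 and -0.20. Those of shEya3_KD1 and SCR did so at -0.43, -0.35 and -0.05, and those of shEya3_KD2 and shEya3_KD1 at 0.12, -0.24 and 0.62. These values had no common sign, so the block is given only here. Groups of 3 leave a permutation p of at least 0.1 for any 1 value, so no such test is given. Library preparation, transcript length and reads shared with copies or neighbours limit what small differences show.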
